A study of Saccharomyces cerevisiae with 18 samples.

Results

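The glycine cleavage system and the enzymes that pass on its one-carbon units were followed through 9 genes of *S. cerevisiae*. They were chosen by name, with earlier results of these data known: *GCV1*, *GCV2*, *GCV3*, *LPD1*, *SHM1*, *SHM2*, *MTD1*, *MIS1* and *ADE3*. All 9 were found by their symbol in the gene table of the arrays, each with 2 spots, among 5543 genes named there. On day 7, 5 of them were lower in colonies of the wild strain than in colonies of the smooth strain, and 4 of these 5 were also lower in colonies of the feral strain. On day 4 none of the 9 was called in any couple. The called genes were *GCV1*, *GCV2* and *GCV3* of the cleavage system and *SHM2* and *MTD1* of the cytosolic enzymes. *LPD1*, *SHM1*, *MIS1* and *ADE3* were not called by the main test in any pair of strains on either day.

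RNA came from giant colonies of BR-RF, BR-F and BR-S, harvested on days 4 and 7 of growth on glycerol medium. BR-F is a wild strain with structured biofilm colonies. BR-S is a domesticated derivative of BR-F with smooth colonies. BR-RF is a single feral subclone that regained structured colonies during long starvation of BR-S. BR-S and BR-RF both go back to BR-F, and no group had an introduced gene or drug. The study describes partial duplications of the BR-RF genome, and DNA copy number was not measured on these arrays. For each couple of strains and each day, RNA of both strains was hybridised together on 3 dual-colour arrays, which gave 18 arrays in all. By the submitters' descriptions, arrays 1 and 2 carried one RNA pair with the dyes exchanged. Their mean was taken as biological replicate 1, with array 3 as biological replicate 2. Log2 ratios are written BR-RF/BR-F, BR-F/BR-S and BR-RF/BR-S, so that a negative value means less mRNA in the strain named first. The standard error (SE, n = 2 biological replicates) rests on the spread in every couple and day, not on these 2 values alone. The adjusted p (padj) is that of limma after Benjamini-Hochberg correction over all genes with both replicates, and genes with a padj under 0.05 were called. Whole colonies were extracted, so fewer cells that express a gene and less mRNA per cell cannot be told apart. The same BR-S colonies may stand behind both ratios over BR-S, and these ratios are therefore set side by side and not counted as independent.

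Between 8040 and 10291 named spots were used per array. *FLO11*, the adhesin gene needed for structured colonies, was not called between the structured strains and the smooth strain here: its ratio on day 7 was 0.14 ± 0.14 (padj = 0.595) in BR-F/BR-S and 0.21 ± 0.14 (padj = 0.356) in BR-RF/BR-S, each from 2 of the 3 arrays, and on day 4 only 1 array of each couple with BR-S measured it. *FLO11* was thus no check of the strain labels on these arrays. By northern blot the study reports *FLO11* mRNA as recovered in BR-RF and present only at very low levels in BR-S. The few usable spots here did not show that difference. Across genes, which are not independent points, the biological replicates correlated at r = 0.354 to 0.757.

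As background, the glycine cleavage system sits in the mitochondrial matrix and breaks glycine down to carbon dioxide and ammonia, while the remaining carbon is passed to tetrahydrofolate as 5,10-methylenetetrahydrofolate. Gcv2p, the P protein, decarboxylates glycine. Gcv3p, the H protein, carries the intermediate on its lipoyl arm. Gcv1p, the T protein, transfers the carbon to folate, and Lpd1p, the L protein, reoxidises the lipoyl arm and also serves pyruvate dehydrogenase and 2-oxoglutarate dehydrogenase. Serine hydroxymethyltransferase interconverts serine and glycine with the same folate, in mitochondria as Shm1p and in the cytosol as Shm2p. The C1-tetrahydrofolate synthases Mis1p (mitochondrial) and Ade3p (cytosolic) and the cytosolic dehydrogenase Mtd1p move the carbon between its oxidation states, which feeds the synthesis of purines, thymidylate and methionine. In *S. cerevisiae* the cleavage genes are known to be induced by glycine.

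*GCV1*, *GCV2* and *GCV3* were lower in BR-F than in BR-S on day 7. *GCV1* (YDR019C, chromosome IV, 484163 to 485365, coordinates here and below from the R64 annotation) had ratios of BR-F/BR-S of -2.25, -2.19 and -1.77 on arrays 1, 2 and 3 on day 7. All 3 arrays lay far below 0 and within a narrow range. The mean was -1.99 ± 0.17 (padj = 0.000151), or 3.98-fold lower in BR-F. *GCV3* (YAL044C, chromosome I, 57950 to 58462) was at -0.86, -2.00 and -1.95, with a mean of -1.69 ± 0.21 (padj = 0.000908), or 3.23-fold lower. Array 1 stood apart from the other two for this gene, but had the same sign. *GCV2* (YMR189W, chromosome XIII, 637500 to 640604) was at -0.98, -1.04 and -1.49, with a mean of -1.25 ± 0.26 (padj = 0.0124), or 2.38-fold lower.

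In the cytosolic branch, *SHM2* and *MTD1* were lower in BR-F on day 7. *SHM2* (YLR058C, chromosome XII, 257992 to 259401) had ratios of BR-F/BR-S of -1.64, -1.10 and -1.27, and its mean was -1.32 ± 0.21 (padj = 0.00358), or 2.49-fold lower. *MTD1* (YKR080W, chromosome XI, 590395 to 591357) was at -1.05, -0.65 and -0.99, with a mean of -0.92 ± 0.16 (padj = 0.00533), or 1.9-fold lower. None of the arrays of these genes reached 0. *ADE3* (YGR204W, chromosome VII, 905934 to 908774), the third cytosolic enzyme, was measured on only 2 arrays of this couple on day 7, at -0.23 and 0.06, with a mean of -0.09 ± 0.20 (padj = 0.826).

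Thus 5 of the 9 genes were lower in BR-F on day 7 and 0 were higher, where 11.2% of the 4902 genes tested in this couple were called in either direction and 5.1% were called lower. The median ratio of the 9 was -0.92, while that of all tested genes was 0.00. The study lists *GCV1*, *GCV2*, *GCV3*, *SHM2* and *MTD1* from these same samples among the genes higher in smooth colonies. The 9 genes were chosen with earlier results of these data known. Neither their direction nor the number called, set beside the share of all genes, is therefore independent evidence. When array 3, the whole of biological replicate 2, was left out, only the calls on *GCV1* and *GCV3* were made. The ratios of *GCV2*, *SHM2* and *MTD1* were then -1.01, -1.37 and -0.85 (padj = 0.220, 0.0602 and 0.123), with a spread taken from the other couples and days.

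The feral strain differed from the smooth strain on day 7 in 4 of these 5 genes. In BR-RF/BR-S, *GCV1* was at -2.07, -2.20 and -1.82 on the 3 arrays, with a mean of -1.98 ± 0.17 (padj = 0.000289), or 3.94-fold lower in BR-RF. *GCV3* was at -2.18, -1.26 and -1.47, with a mean of -1.60 ± 0.21 (padj = 0.00103), or 3.02-fold lower. For both genes every array was below -1. *SHM2* was at -1.07, -0.54 and -1.27, with a mean of -1.04 ± 0.21 (padj = 0.00926), or 2.05-fold lower. *MTD1* was at -1.18, -0.60 and -1.07, with a mean of -0.98 ± 0.16 (padj = 0.00344), or 1.97-fold lower. In these cytosolic enzymes array 2 gave the smallest difference, and no array had the opposite sign.

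By the main test, *GCV2* was the exception in BR-RF. Its ratios over BR-S on day 7 were -0.68, -1.03 and -0.38, with a mean of -0.62 ± 0.26 (padj = 0.128). All 3 arrays lay below 0, but the mean did not pass the test. A call appeared when the 3 arrays were treated as replicates, with a mean of -0.70 (padj = 0.0430), and in a fit with a dye term for each gene, with a mean of -0.76 (padj = 0.00900). The direct comparison of the structured strains did not settle whether *GCV2* differed between them: BR-RF/BR-F on day 7 was 0.71, -0.16 and -0.90 on the 3 arrays, with a mean of -0.31 ± 0.26 (padj = 0.463). These arrays disagreed in sign. The ratio measured in BR-RF/BR-S was also 0.94 above the sum of the ratios of the other couples, the largest such gap among the 9 genes on either day, while the median size of this gap on day 7 was 0.22 over the 9 genes and 0.18 over 4439 genes.

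In this couple 4 of the 9 genes were lower and 0 higher, where 15.9% of 4716 genes were called and 8.61% were called lower. The median of the 9 was -0.62, against 0.00 for all tested genes. As in BR-F/BR-S, the number called is not independent evidence. Without array 3, *GCV1* and *GCV3* were called, and the ratios of *SHM2* and *MTD1* were -0.80 and -0.89 (padj = 0.198 and 0.0890).

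**Figure D1:**
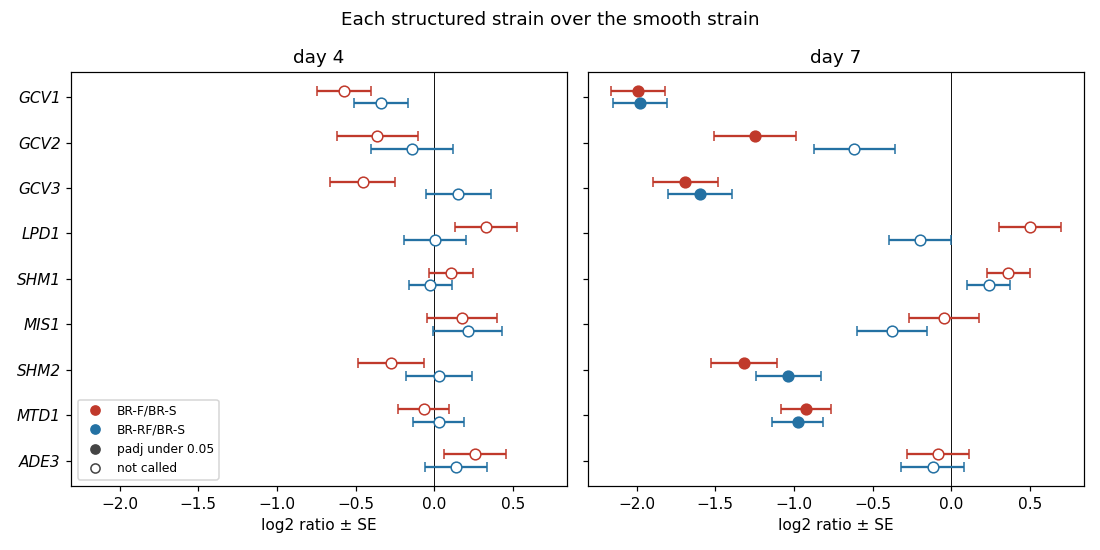
Log2 ratio of each of the 9 genes (horizontal axis, with its SE) in BR-F/BR-S and BR-RF/BR-S on day 4 (left) and day 7 (right), filled where padj was under 0.05. On day 7 *GCV1* and *GCV3* lie between -1.99 and -1.60 in both couples, *SHM2* and *MTD1* between -1.32 and -0.92, and on day 4 no point is filled.

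The gene of the shared L protein, *LPD1* (YFL018C, chromosome VI, 101628 to 103127) was not called in any couple. Its ratios in BR-F/BR-S on day 7 were 0.30, 0.53 and 0.58, all above 0, with a mean of 0.50 ± 0.20 (padj = 0.129). In BR-RF/BR-S they were -0.21, -0.20 and -0.19, with a mean of -0.20 ± 0.20 (padj = 0.521). In BR-RF/BR-F *LPD1* was below 0 on every array of both days, at -0.29, -0.30 and -0.75 on day 4 (mean -0.52 ± 0.20, padj = 0.172) and at -0.56, -0.55 and -0.18 on day 7 (mean -0.37 ± 0.20, padj = 0.242). With a dye term for each gene the day 7 ratios were called in BR-F/BR-S, at 0.45 (padj = 0.0328), and in BR-RF/BR-F, at -0.45 (padj = 0.0312). With 3 arrays as replicates the ratio in BR-F/BR-S was called as well (0.47, padj = 0.0463).

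The mitochondrial counterparts of *SHM2* and *ADE3* were also not called. *SHM1* (YBR263W, chromosome II, 736264 to 737736) was at 0.43, 0.17 and 0.42 in BR-F/BR-S on day 7, with a mean of 0.36 ± 0.14 (padj = 0.121), and at 0.12, 0.22 and 0.30 in BR-RF/BR-S, with a mean of 0.24 ± 0.14 (padj = 0.270). Its values were small but above 0 on all of these arrays, where those of *SHM2* were all below 0. *MIS1* (YBR084W, chromosome II, 411054 to 413981) was at -0.69, 0.23 and 0.13 in BR-F/BR-S on day 7, with a mean of -0.05 ± 0.22 (padj = 0.916), and at -1.17, 0.14 and -0.24 in BR-RF/BR-S, with a mean of -0.38 ± 0.22 (padj = 0.268). The arrays of *MIS1* disagreed in sign. *ADE3* in BR-RF/BR-S was at 0.32, 0.22 and -0.51, with a mean of -0.12 ± 0.20 (padj = 0.721). Each of these 3 genes was called under 1 alternative on day 7. With a dye term *SHM1* was called in BR-F/BR-S (0.34, padj = 0.0443) and *MIS1* in BR-RF/BR-F (-0.61, padj = 0.0226), and with median centring *ADE3* in BR-RF/BR-S (-0.61, padj = 0.0406).

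**Figure D2:**
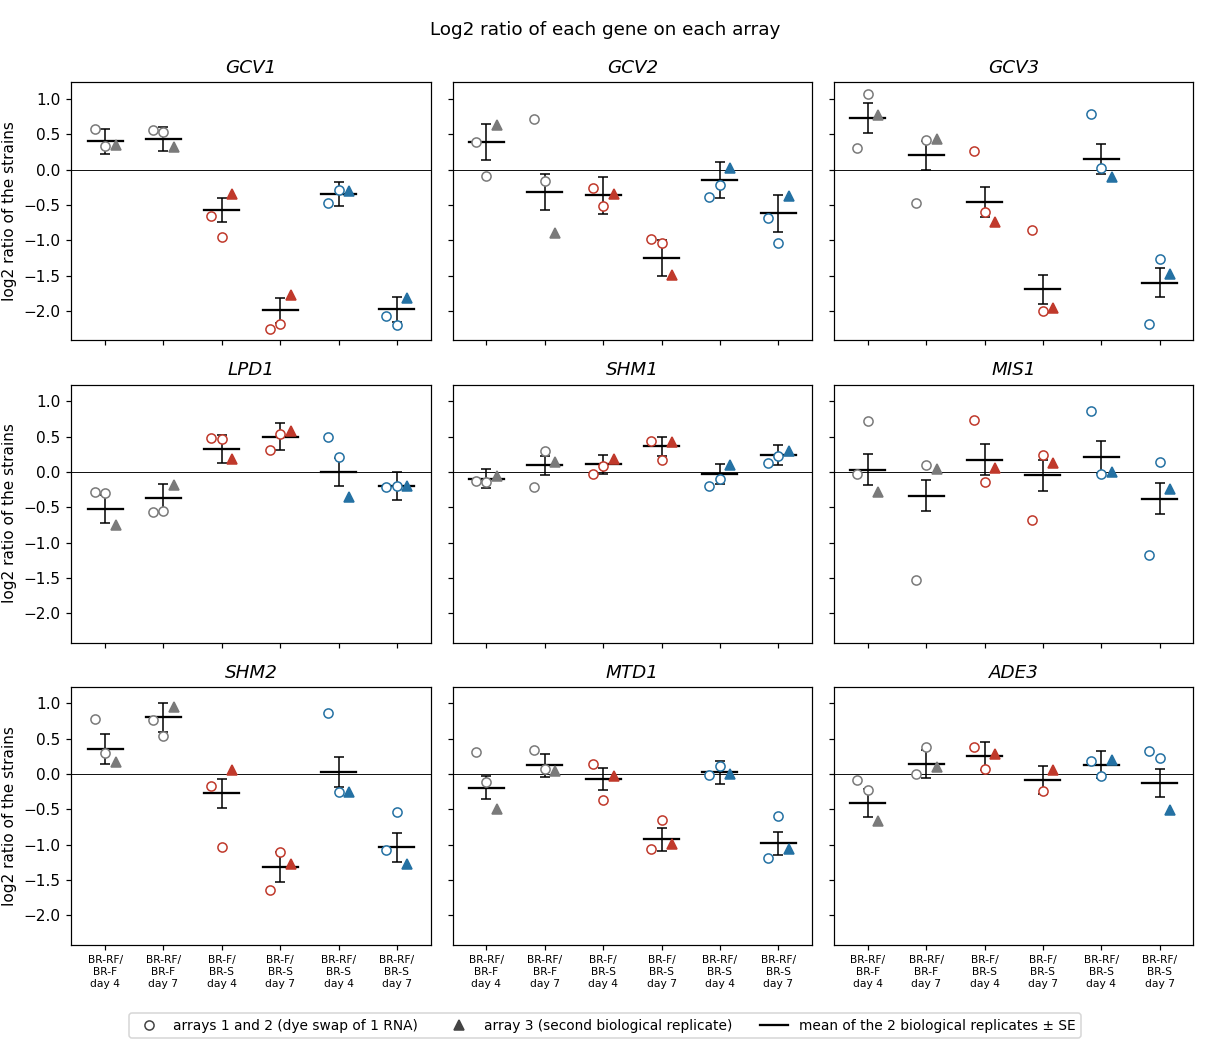
Log2 ratio of each gene (vertical axis) on each array, by couple of strains and day, with circles for the dye-swapped arrays 1 and 2, triangles for array 3, and bars for the mean of the biological replicates with its SE. For *GCV1* on day 7 all arrays over BR-S lie between -2.25 and -1.77, while for *MIS1* array 1 stands apart from arrays 2 and 3.

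On day 4, 0 of the 9 genes were called by limma in any couple, while 3 of 9 in BR-RF/BR-F, 2 of 9 in BR-F/BR-S and 0 of 9 in BR-RF/BR-S had an unadjusted p under 0.05. Of all genes, 5.97%, 4.69% and 4.79% were called in these couples. The *GCV1* ratio in BR-F/BR-S was below 0 on all 3 arrays, at -0.66, -0.95 and -0.35, with a mean of -0.57 ± 0.17 (padj = 0.0877). It was called after scaling between arrays (-0.65, padj = 0.0250), with 3 arrays as replicates (-0.65, padj = 0.00601) and with the dye term (-0.66, padj = 0.0037). *GCV2* was at -0.26, -0.51 and -0.34, with a mean of -0.36 ± 0.26 (padj = 0.529), and *GCV3* at 0.26, -0.60 and -0.74, with a mean of -0.46 ± 0.21 (padj = 0.276). *SHM2* and *MTD1* were at -0.27 ± 0.21 (padj = 0.563) and -0.07 ± 0.16 (padj = 0.893). *LPD1*, *SHM1*, *MIS1* and *ADE3* lay between 0.11 and 0.33.

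In BR-RF/BR-S on day 4 the 9 ratios lay between -0.34 and 0.21, with *GCV1* at -0.47, -0.29 and -0.31 on the arrays (mean -0.34 ± 0.17, padj = 0.358) the lowest. In BR-RF/BR-F on day 4 the cleavage genes were above 0, with *GCV3* at 0.31, 1.07 and 0.77 (mean 0.73 ± 0.21, padj = 0.0666), *GCV1* at 0.40 ± 0.17 (padj = 0.226) and *GCV2* at 0.39 ± 0.26 (padj = 0.440). *GCV3* was called when dim spots were left out (0.74, padj = 0.0410) and without array 1 (0.92, padj = 0.0323).

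Between the structured strains on day 7, *SHM2* was the 1 of 9 genes called, where 15.3% of 4984 genes were called. Its ratios of BR-RF/BR-F were 0.77, 0.55 and 0.95, and the mean was 0.80 ± 0.21 (padj = 0.0251), or 1.75-fold higher in BR-RF. From high to low, the order of *SHM2* mRNA on day 7 was therefore BR-S, then BR-RF, then BR-F, each neighbouring pair differing by the test, although the sum of BR-RF/BR-F and BR-F/BR-S (-0.51) lay above the measured BR-RF/BR-S (-1.04). The call between BR-RF and BR-F was lost after scaling between arrays (0.71, padj = 0.0651) and without array 3 (0.66, padj = 0.206). *GCV1* was above 0 on all 3 arrays, at 0.56, 0.53 and 0.32, with a mean of 0.43 ± 0.17 (padj = 0.116), and was called with 3 arrays as replicates (0.47, padj = 0.0208) and with the dye term (0.48, padj = 0.0131). The ratios of *GCV3* and *MTD1* were 0.20 ± 0.21 (padj = 0.559) and 0.12 ± 0.16 (padj = 0.657). For *GCV1*, *GCV3* and *MTD1* BR-RF and BR-F were thus below BR-S, and not separated from each other by the main test.

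The difference between the days was tested directly as day 7 minus day 4. In BR-F/BR-S the ratio of *GCV1* was lower on day 7 by 1.42 on the log2 scale (-1.42 ± 0.24, padj = 0.0439), the only 1 of the 9 called, where 0.311% of 4179 genes were called. The differences of *GCV3* and *GCV2* in this couple were -1.24 ± 0.29 (padj = 0.164) and -0.88 ± 0.36 (padj = 0.508). That of *GCV3* was called with the deposited ratios (-1.75, padj = 0.0235), without dim spots (-1.52, padj = 0.0438) and without array 1 of day 7 (-1.52, padj = 0.0396). In BR-RF/BR-S the difference was -1.64 ± 0.24 (padj = 0.0396) for *GCV1* and -1.75 ± 0.29 (padj = 0.0398) for *GCV3*, where 0.352% of 4262 genes were called. *SHM2* and *MTD1* had differences of -1.04 ± 0.30 (padj = 0.256) and -0.85 ± 0.23 (padj = 0.221) in BR-F/BR-S and of -1.06 ± 0.30 (padj = 0.141) and -1.003 ± 0.23 (padj = 0.0757) in BR-RF/BR-S. By the main test, a call on day 7 alone was thus not shown to be a difference between days for these genes. The same held for *GCV2* and *GCV3* in BR-F/BR-S. The *MTD1* difference was called with a dye term, at -0.85 (padj = 0.0480) in BR-F/BR-S and -0.95 (padj = 0.0284) in BR-RF/BR-S. In BR-RF/BR-S it was also called with 3 arrays as replicates (-0.98, padj = 0.0338) and without array 2 of day 7 (-1.15, padj = 0.0425). That of *SHM2* was not called under any alternative. In BR-RF/BR-F 0 of the 9 were called, with 0 at an unadjusted p under 0.05, where 0.523% of 4783 genes were called. In every couple the dyes of array 3 were exchanged between the days, so a dye effect of a gene enters these differences. With a dye term in the fit, the differences of *GCV1* and *GCV3* in BR-RF/BR-S were -1.70 and -1.76 and that of *GCV1* in BR-F/BR-S was -1.40, all called. None of these 3 calls held with median centring (padj = 0.0701, 0.0736 and 0.0879) or without array 3 of either day (padj from 0.0540 to 0.279).

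Dye effects of single genes could be read from the swapped arrays 1 and 2, where the mean of log2 Cy5 over Cy3 is 0 without such an effect. For *MIS1* this mean was below 0 in all 6 couples and days, between -0.82 and -0.37. For *GCV3* it lay between -0.46 and -0.38 in 5 of them and at 0.57 in BR-F/BR-S on day 7, where array 1 stood apart. For *SHM2* it ranged from -0.55 to 0.24 and was -0.27 in both couples with BR-S on day 7, where *SHM2* was called. *GCV2* had means between -0.13 and 0.44 and *MTD1* between -0.29 and 0.22, while those of *GCV1* and *LPD1* lay between -0.14 and 0.12. Spots of the same gene agreed well within an array, with a median difference of 0.06 for *GCV3* and 0.07 for *GCV1* and *LPD1*, the highest median being 0.18 for *ADE3*. Of 36 spots each over the 18 arrays, 34 to 36 were usable. *MTD1* and *ADE3* were the dimmest. In 24 of 36 and 16 of 34 of their used spots the signal left after background subtraction was at least as large as the local background in both channels. For the other genes this held for 28 to 36 spots. With dim spots left out, *MTD1* could not be tested in BR-F/BR-S on day 7.

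The 9 genes lie on 8 chromosomes. For each of them the median ratio of the 10 measured genes on either side was taken. On day 7 these medians were -0.06 around *GCV1*, -0.09 around *GCV2*, 0.11 around *GCV3*, -0.09 around *SHM2* and 0.08 around *MTD1* in BR-F/BR-S. In BR-RF/BR-S they were 0.08, -0.24, -0.08, 0.43 and 0.04 for these 5 genes. *SHM2*, on the right arm of chromosome XII, was thus lower in BR-RF in a stretch whose median was above 0. In BR-RF/BR-F the median around *SHM2* was 0.27, beside its own 0.80.

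The nearest measured gene left of *GCV2* was an exception, singled out after its values were seen. *MRPS17* (YMR188C, chromosome XIII, 636291 to 637004), a gene of the small subunit of the mitochondrial ribosome, lies 495 bases from *GCV2* and is transcribed away from it. Its ratios on day 7 were -1.22 ± 0.20 (padj = 0.00434) in BR-F/BR-S and -1.55 ± 0.20 (padj = 0.0011) in BR-RF/BR-S. The study lists it, too, as higher in smooth colonies.

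**Figure D3:**
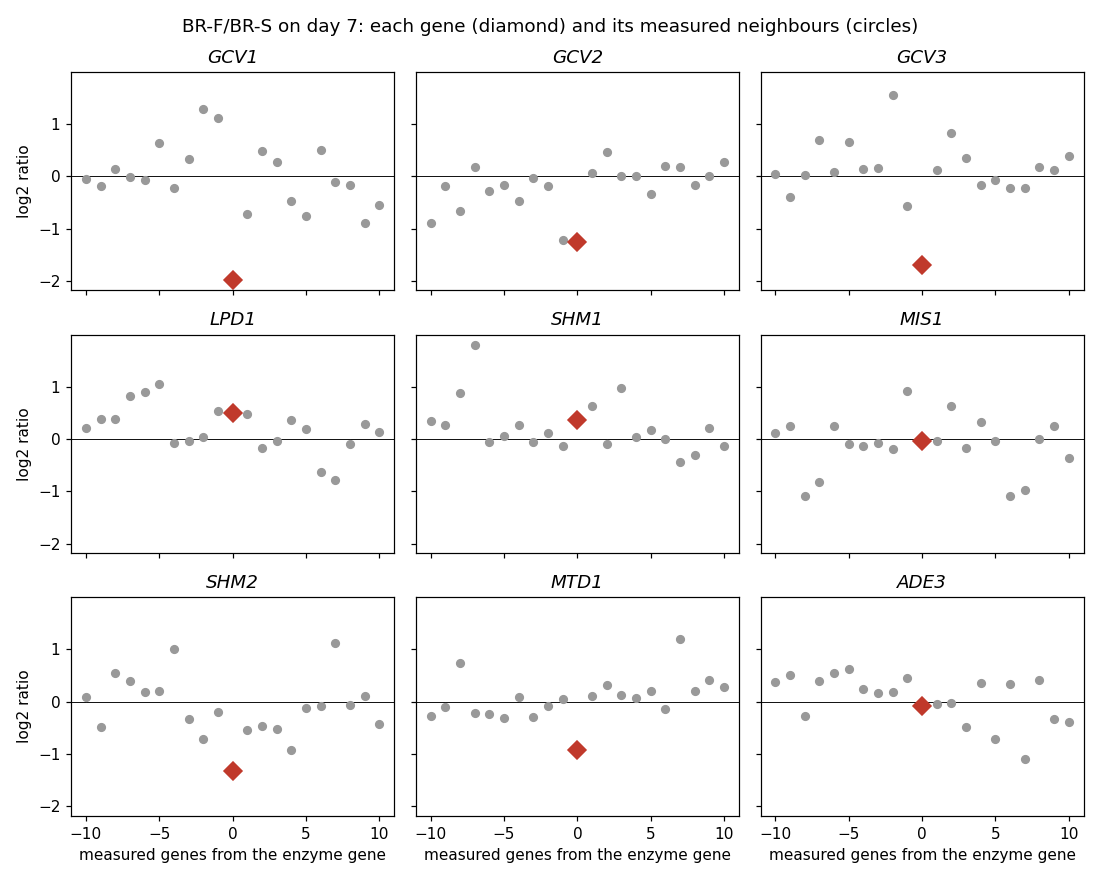
Log2 ratio of BR-F/BR-S on day 7 (vertical axis) for each of the 9 genes (diamond) and the 10 measured genes on either side in chromosome order (circles, horizontal axis in genes). *GCV1* at -1.99, *GCV3* at -1.69, *SHM2* at -1.32 and *MTD1* at -0.92 lie below all their neighbours. *GCV2* at -1.25 does so only by little, since the circle beside it at -1.22 is *MRPS17*.

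Of the pathways around these enzymes, purine synthesis, which takes up one-carbon units as formyltetrahydrofolate, held the most called genes on day 7. In BR-F/BR-S 4 of 9 measured genes were lower and 0 higher, with a median of -0.60, where 5.1% of all genes were called lower. In BR-RF/BR-S 5 of 9 were lower and 0 higher, with a median of -0.57 and all 9 ratios below 0, where 8.61% of all genes were called lower. *ADE13*, adenylosuccinate lyase, was at -1.02 ± 0.18 (padj = 0.00507) in BR-F and -1.38 ± 0.18 (padj = 0.000986) in BR-RF. *ADE2*, phosphoribosylaminoimidazole carboxylase, was at -1.03 ± 0.17 (padj = 0.00391) and -0.59 ± 0.17 (padj = 0.0378) in these strains. *ADE8*, the glycinamide ribonucleotide formyltransferase that uses formyltetrahydrofolate, was at -0.89 ± 0.24 (padj = 0.0348) and -1.01 ± 0.24 (padj = 0.0173). On day 4, 0 of 9 were called by limma in BR-F/BR-S (1 of 9 with an unadjusted p under 0.05) and 1, *ADE13*, in BR-RF/BR-S, at -0.71 ± 0.18 (padj = 0.0475). Over all genes 4.69% and 4.79% were called in these couples on day 4. *ADE13* was also called in BR-RF/BR-F on day 4, at -0.77 ± 0.18 (padj = 0.0309), where 5.97% of all genes were called. In BR-RF/BR-S the unadjusted p on day 4 was under 0.05 for 4 of the 9. The other 3, *ADE1*, *ADE4* and *ADE6*, had ratios above 0, at 0.57, 0.39 and 0.38 (padj = 0.235, 0.237 and 0.279), and the median of the 9 was 0.23, on the other side of 0 from day 7. On day 7 *ADE1* and *ADE4* were among the genes called lower in BR-RF/BR-S, at -0.83 and -0.57 (padj = 0.0350 and 0.0359). *ADE6* was not called there, at -0.37 (padj = 0.157). The study lists *ADE1*, *ADE2*, *ADE8* and *ADE13* from these samples as well, and the list was chosen with earlier results known. Neither the direction nor the number called is thus independent evidence.

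The genes that supply serine and glycine moved in different directions. *AGX1*, which makes glycine from glyoxylate and alanine, was higher in BR-F than in BR-S on day 7, at 1.55 ± 0.22 (padj = 0.00207), and lower in BR-RF relative to BR-F, at -1.27 ± 0.22 (padj = 0.00345). Its ratio in BR-RF/BR-S was 0.00 ± 0.22. On day 4 *AGX1* was at 0.73 ± 0.22 (padj = 0.0915) in BR-F/BR-S and 0.14 ± 0.22 (padj = 0.827) in BR-RF/BR-S. In BR-RF/BR-F it was at -0.86 ± 0.22 (padj = 0.0473) on day 4, a call lost under 4 of 13 alternatives. *SER33*, a phosphoglycerate dehydrogenase gene of serine synthesis, was higher in BR-RF relative to BR-F on day 7, at 1.37 ± 0.21 (padj = 0.00206), with -0.64 ± 0.21 (padj = 0.0817) in BR-F/BR-S. *SER2*, phosphoserine phosphatase, was higher in BR-RF than in BR-S, at 0.66 ± 0.18 (padj = 0.0297). Of this list, 1 of 6 was higher and 2 lower in BR-F/BR-S on day 7, with a median of -0.47, and 1 of 5 higher and 0 lower in BR-RF/BR-S, with a median of 0.00. Over all genes 11.2% and 15.9% were called in these couples. *SER33* and *SER3* are close relatives, and their spots may share signal.

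Among the genes of folate synthesis and polyglutamylation, 2 of 9 were lower in BR-F/BR-S on day 7 (median -0.06), and 1 was higher and 1 lower in BR-RF/BR-S (median 0.00), where 11.2% and 15.9% of all genes were called in either direction. *FOL2*, GTP cyclohydrolase of the first step of folate synthesis, was lower in both, at -0.81 ± 0.14 (padj = 0.00583) and -0.61 ± 0.14 (padj = 0.0182), and the study lists it as higher in smooth colonies. *ABZ1*, which makes the aminobenzoate part of folate, was higher in BR-RF relative to BR-F, at 0.77 ± 0.14 (padj = 0.00544), and *DFR1*, dihydrofolate reductase, was higher in BR-RF than in BR-S, at 1.07 ± 0.32 (padj = 0.0440), a call lost under 5 of 11 alternatives. Of 7 measured genes that use methylenetetrahydrofolate or belong to the methyl cycle, limma called 0 in either comparison with BR-S on day 7 (1 and 0 of 7 with an unadjusted p under 0.05), with medians of -0.15 (BR-F) and -0.04 (BR-RF). *MET12*, a methylenetetrahydrofolate reductase gene, was higher in BR-RF relative to BR-F, at 0.66 ± 0.18 (padj = 0.0349).

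Genes that share the lipoyl chemistry of the cleavage system were not among those called over BR-S. Of 3 genes of lipoate attachment and 6 of the pyruvate and 2-oxoglutarate dehydrogenase complexes, 0 were called by limma in BR-F/BR-S or BR-RF/BR-S on either day. Over all genes, 11.2% and 15.9% were called in these couples on day 7, and 4.69% and 4.79% on day 4. With so few genes, 0 called does not set these lists apart from all genes. The unadjusted p on day 7 was under 0.05 for 2 of the 3 and 1 of the 6 in BR-F/BR-S, while BR-RF/BR-S had 1 of the 3 and 0 of the 6. Their medians in BR-F/BR-S on day 7 were 0.44 and 0.33, and in BR-RF/BR-S 0.21 and -0.14. *LIP5*, lipoate synthase, was lower in BR-RF relative to BR-F on day 7, at -0.71 ± 0.14 (padj = 0.00686), as was *KGD2*, the lipoylated subunit of 2-oxoglutarate dehydrogenase, at -1.14 ± 0.28 (padj = 0.0203).

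The last list held *BAS1* and *PHO2*, whose products act together on purine synthesis genes and on several one-carbon genes, and *GCN4*, the general activator of amino acid synthesis genes. *BAS1* had a day 7 ratio of 0.11 ± 0.19 (padj = 0.762) in BR-F/BR-S and of -0.56 ± 0.19 (padj = 0.0704) in BR-RF/BR-S, and it was lower in BR-RF relative to BR-F, at -0.97 ± 0.19 (padj = 0.00643). *PHO2* was lower in BR-RF than in BR-S, at -1.08 ± 0.30 (padj = 0.0337), with -0.65 ± 0.30 (padj = 0.185) in BR-F/BR-S, and it too is listed by the study. *GCN4* was at -0.37 ± 0.33 (padj = 0.509) in BR-F and 0.40 ± 0.33 (padj = 0.430) in BR-RF. Thus 0 of 3 were called by limma in BR-F/BR-S on day 7, also at an unadjusted p under 0.05, where 11.2% of all genes were called. In BR-RF/BR-S 1 of 3 was called and 2 of 3 had an unadjusted p under 0.05, where 15.9% of all genes were called.

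Of 29 called ratios of the genes named here with *MRPS17*, *HRK1* and *RSM26*, 21 were lost without array 3 and 12 under an alternative other than leaving out an array, with 0 changes of sign. The list genes counted here were the up to 3 called genes of smallest padj in each list. Called ratios of *ADE1*, *ADE4*, *SER3*, *TRX2*, *TIF35* and *SNU66* were not among the 29. In BR-RF/BR-S on day 7, *DFR1* was not called after scaling between arrays, with 3 arrays as replicates or with the dye term, *ADE2* with median centring, without dim spots or after scaling, *SER2* with median centring or after scaling, *FOL2* after scaling, and *ADE8* without dim spots. With median centring the calls of *ADE8* and *RSM26* in BR-F/BR-S and of *MET12* in BR-RF/BR-F on day 7 were lost, as was that of *ADE13* in BR-RF/BR-S on day 4. The 8 that stayed called throughout were those of *ADE13*, *MRPS17* and *HRK1* in BR-RF/BR-S on day 7, of *HRK1* in BR-F/BR-S on day 7, and of *AGX1*, *SER33*, *KGD2* and *BAS1* in BR-RF/BR-F on day 7. Without array 3, *ADE13*, *ADE2* and *ADE8* were at -1.08, -1.10 and -0.69 in BR-F/BR-S on day 7 (padj = 0.0782, 0.0641 and 0.387), *AGX1* was at 1.43 (padj = 0.0602) and *FOL2* at -0.80 (padj = 0.117).

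**Figure D4:**
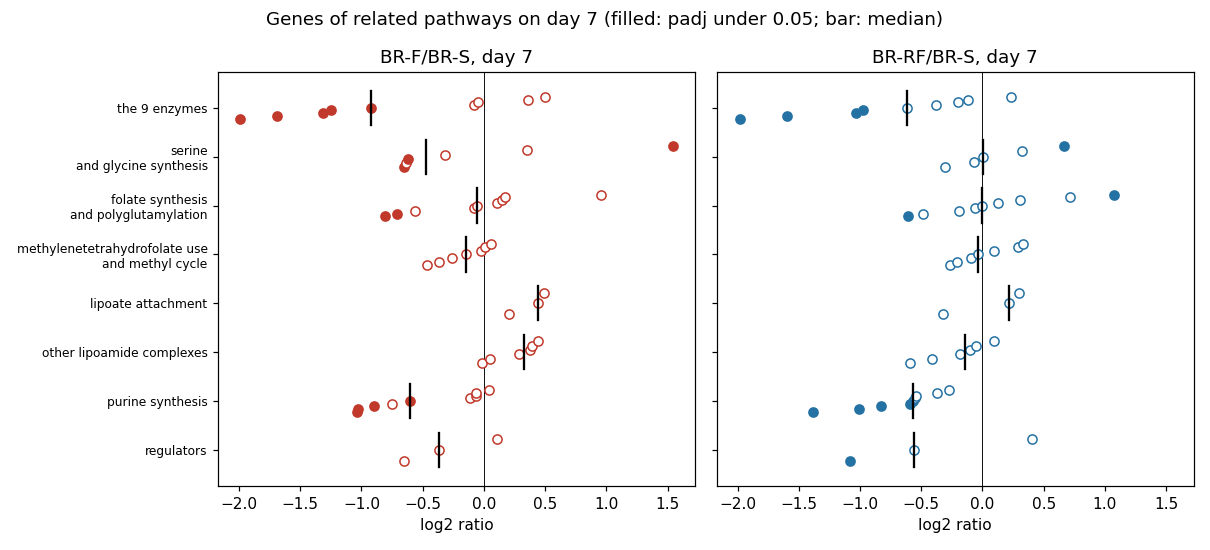
Log2 ratios on day 7 (horizontal axis) of the 9 enzyme genes and of the genes of related pathways (rows) in BR-F/BR-S (left) and BR-RF/BR-S (right), filled where padj was under 0.05, with a bar at the median of each list. The medians of the 9 genes (-0.92 and -0.62) and of purine synthesis (-0.60 and -0.57) lie to the left of 0, and that of lipoate attachment (0.44 and 0.21) to the right.

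Over the 12 ratios of biological replicates, the mean ratio of *GCV1*, *GCV2* and *GCV3* was followed by *SHM2* at r = 0.87 and by *MTD1* at r = 0.82, and ran against *SHM1* at r = -0.83 and *LPD1* at r = -0.60. *MIS1* and *ADE3* were at r = 0.15 and -0.11. Among 3834 genes measured in all 12, those most alike outside the 9 were *RSM26* (r = 0.95), of the mitochondrial ribosome, *HRK1* (r = 0.93), a protein kinase gene, *TRX2* (r = 0.93), a thioredoxin gene, *TIF35* (r = 0.92), of translation initiation, and *SNU66* (r = 0.92), of the spliceosome. The ratios share strains, days and RNA, and these values are descriptions. Of these 5 genes, *HRK1* had ratios of a size like those of the cleavage genes on day 7, at -1.41 ± 0.19 (padj = 0.00147) in BR-F/BR-S and -1.31 ± 0.19 (padj = 0.00172) in BR-RF/BR-S, and is on the study's list for smooth colonies, while *RSM26* had -0.54 ± 0.14 (padj = 0.0348) and -0.27 ± 0.14 (padj = 0.212).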

How the data were processed

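Poly(A) RNA of colonies was measured on 18 dual-colour spotted ORF arrays. The deposited array files hold median Cy3 and Cy5 spot intensities, from which the authors had subtracted local background in TIGR Spotfinder, with the median background intensity beside them. The deposited value table holds log2 ratios after LOWESS by the authors in MIDAS and served as an alternative. In 17 of its columns print blocks ran column by column and in 1 row by row, as found from the values, and all were reordered. Of 2 files, values already passed through MIDAS were not used.

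Spots marked as poor or without positive signal were left out, log2 ratios were normalised by loess (span 0.3) on each array over named spots, and spots of a gene were averaged. A limma 3.58.1 model (R 4.3.3, lmFit with moderated variances) was fitted to the 12 replicate ratios, with 1 mean per couple and day, two-sided, with Benjamini-Hochberg adjustment over 4350 to 4984 genes (prior degrees of freedom 4.64, median SE 0.20). Nothing states that replicates were separate cultures, and the paper's text calls all 3 arrays biological replicates, so p-values measure the spread between these samples. Precision is limited by the small number of arrays. The code was tested on simulated data. Summaries used Python 3.11.15 with numpy 2.4.6 and pandas 2.3.3, and figures matplotlib 3.10.9.

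The 9 genes and the 7 pathway lists were chosen with earlier results of these data known. All 9 were named, with up to 3 called genes a list of smallest adjusted p, the 5 genes of highest r with the mean of *GCV1*, *GCV2* and *GCV3*, and neighbours as medians. Of 10 purine synthesis genes 9 were matched by name, and the other was not analysed here. Alternatives were other normalisations, spot filters, an added offset of 50, treatment of replicates and dyes, thresholds of 1.5-fold and an unadjusted p under 0.05, and leaving out each array.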

Additional observations from a re-analysis of the deposited data

Results flagged for a closer look

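The ratio to the smooth strain differed between colony ages for 3 gene and couple combinations, by the test of day 7 minus day 4. For *GCV1* the difference was -1.42 ± 0.24 (padj = 0.0439) in BR-F/BR-S and -1.64 ± 0.24 (padj = 0.0396) in BR-RF/BR-S, and for *GCV3* it was -1.75 ± 0.29 (padj = 0.0398) in BR-RF/BR-S. Over 16 alternatives these differences ranged from -1.64 to -1.19, from -1.79 to -1.17 and from -2.01 to -1.51, and 10, 10 and 9 of the alternatives kept the call (padj from 0.000632 to 0.277, from 0.000169 to 0.154 and from 0.0190 to 0.279). Array 3 carried opposite dyes on the 2 days. With a dye term the differences were -1.40, -1.70 and -1.76, all called. Without array 3 of day 4 they were -1.19, -1.60 and -2.01 (padj = 0.277, 0.0839 and 0.0540) and without array 3 of day 7 -1.64, -1.79 and -1.87 (padj = 0.157, 0.154 and 0.279), none of them called. Array 1 of day 7 also decided both calls in BR-RF/BR-S (padj = 0.0572 and 0.153 without it), array 1 of day 4 those of *GCV3* (padj = 0.0729) and of *GCV1* in BR-F/BR-S (padj = 0.0916), and array 2 of day 7 that of *GCV1* in BR-F/BR-S (padj = 0.0682).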

How the results depend on the processing

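Of 54 ratios (9 genes in 6 couples and days), 10 were called. None of the 10 changed sign under any alternative, and 1 lost its call under an alternative other than leaving out an array (*SHM2* in BR-RF/BR-F on day 7, after scaling between arrays), while *MTD1* could not be tested in BR-F/BR-S on day 7 without dim spots. Of the 44 other ratios, 16 changed sign under at least 1 alternative, none of them being called there, and 9 were called under at least 1.

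For the number of the 9 genes called, BR-F/BR-S on day 7 (5) came to 2 to 5 when 1 array was left out, BR-RF/BR-S on day 7 (4) to 2 to 4, BR-RF/BR-F on day 7 (1) to 0 to 1 and BR-RF/BR-F on day 4 (0) to 0 to 1. Scaling between arrays gave 0 in BR-RF/BR-F on day 7 and 1 in BR-F/BR-S on day 4, 3 arrays as replicates gave 2 and 1, and the dye term 4 and 1. In BR-F/BR-S on day 7, 3 arrays as replicates gave 6, adding *LPD1*, and the dye term 7, adding *LPD1* and *SHM1*. Both added genes were higher in BR-F. Leaving out dim spots, and the methods' thresholds of 1.5-fold and an unadjusted p under 0.05, each gave 1 in BR-RF/BR-F on day 4. *GCV2* in BR-RF/BR-S on day 7 also passed these thresholds. For differences between days, BR-F/BR-S (1) came to 0 with median centring, 2 with the deposited ratios, 2 without dim spots, 2 with the dye term and 0 to 2 with 1 array left out. BR-RF/BR-S (2) came to 0 with median centring, 1 without dim spots, 1 after scaling and 0 to 3 with 1 array left out. With 3 arrays as replicates and with the dye term, *MTD1* was called in BR-RF/BR-S beside *GCV1* and *GCV3*. With a replicate block, 0 differences between days were called in either couple (padj = 0.0668 and 0.0664 for *GCV1* in BR-F/BR-S and BR-RF/BR-S, 0.0753 for *GCV3* in BR-RF/BR-S), and no count within a couple and day moved by over 1.5 times. The deviations of same-numbered replicates correlated at r from -0.54 to 0.32 over 15 pairs of couples and days, not above 0.1 in every pair, and nothing in the labels pairs them, so the numbers were not taken as pairs. Strains shared between couples can give r either sign. The cause of these changes was not tested, except that leaving out array 3 leaves 1 biological replicate. Signal over background limits *ADE3* and *MTD1*.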
